A study of Mus musculus with 13 samples.

Results

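The plasma miRNAs of mdx mice given Givinostat were compared with those of mdx mice given vehicle. Mice were placed in these groups by the sample names, which give the treatment and the animal number, and this took 7 of the 13 libraries of the series. The 3 Givinostat mice (animals 31, 34 and 35) and the 4 vehicle mice (animals 40, 41, 42 and 43) were male C57BL/10ScSn-Dmdmdx/J animals, 7 to 8 weeks old at purchase. Both groups therefore carried the same mutation of the dystrophin gene, and both were gavaged on 5 days a week for 15 weeks. One group received Givinostat at 37.5 mg/kg suspended in 0.5% methylcellulose, and the other the 0.5% methylcellulose alone. The strain field of the labels reads C57BL/10J for all samples, so the genotype was taken from the treatment notes. Blood was drawn from the retro-orbital plexus at the last time point (T16), and 1 small RNA library was made from the plasma of each animal. The other 6 libraries, from 3 naive mdx and 3 naive wt (C57BL/10J) mice, entered the fit of the spread between mice and served for reference. Dystrophin was absent from birth in every mdx mouse, so the comparison is of treatment on an established disease and holds no treated wt group.

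Givinostat inhibits histone deacetylases, the enzymes that remove acetyl groups from histones and other proteins. miRNAs are cut from hairpin transcripts; either arm of a hairpin (5p or 3p) can be loaded into an Argonaute protein, and the seed, the bases near the 5′ end of the loaded strand, pairs with the messenger RNAs to be repressed. Plasma holds miRNAs released by many organs and blood cells, and damaged dystrophic muscle is a well-known source of them. The question was whether treatment moved these circulating miRNAs.

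The sequences of the miRNAs that stood furthest apart between the groups, and of their relatives by seed, are shown because the relatives did not move alike. They were taken from RefSeq (GRCm38.p6), which held a mature sequence under the name of 319 of the 368 miRNAs tested. They are written 5′ to 3′, with bases 2 to 8 (the seed) in capitals. The first group shares the seed of miR-92b-3p.
miR-92b-3p: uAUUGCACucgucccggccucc
miR-92a-3p: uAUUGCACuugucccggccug
miR-25-3p: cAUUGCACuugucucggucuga
miR-32-5p: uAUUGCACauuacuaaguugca
miR-363-3p: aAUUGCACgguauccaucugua
One seed is common to the miR-34b and miR-34c 3p arms, and another to the 5p arms of miR-449a and miR-34a.
miR-34b-3p: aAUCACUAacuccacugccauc
miR-34c-3p: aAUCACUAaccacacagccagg
miR-449a-5p: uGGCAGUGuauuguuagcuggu
miR-34a-5p: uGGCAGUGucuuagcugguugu
The third group is the miR-15/16 family, the seed with the highest median difference among those with at least 3 tested miRNAs whose sequence RefSeq held.
miR-15b-5p: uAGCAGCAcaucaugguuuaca
miR-195a-5p: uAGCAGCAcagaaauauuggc
miR-16-5p: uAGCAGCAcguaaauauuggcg
miR-15a-5p: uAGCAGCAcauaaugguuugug
miR-497a-5p: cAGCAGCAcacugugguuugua
On GRCm38, Mir92b lies on chromosome 3 from 89227116 to 89227198 (minus strand), in no other gene of the GENCODE annotation. Mir34c and Mir34b are neighbours on chromosome 9, from 51103034 to 51103110 and from 51103562 to 51103645 (minus strand), opposite an intron of Btg4. Mir449a lies on chromosome 13 from 113037534 to 113037624 (plus strand), in an intron of Cdc20b.

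The 7 libraries were of like depth. Total counts were 1364813 to 1437031 with Givinostat and 1283646 to 1522871 with vehicle, and 653 to 726 and 674 to 722 miRNAs had a count. The groups differed by -15365 in mean total counts (two-sided exact permutation test, p = 0.8; with 3 against 4 mice the smallest possible p is 0.0571, so no single value can pass 0.05). Levels are given as CPM, counts scaled to a common library total. In a library without a count of a miRNA, the upper limit was 1.97 to 2.34 CPM (3 counts of its total, counting error only). The table lists 1907 mature miRNAs; 1073 had a count in these 7 libraries, and 368 passed the filter on low counts, holding 99.93% to 99.96% of the counts. All 9 pairs of libraries within the groups differed by more than sampling noise (chi-square per degree of freedom of at least 119.5). The labels name no batch, so none could be examined. The values below are scaled by TMM, which matches the libraries on the bulk of their miRNAs. They are relative: more of one source and less of the others cannot be told apart in plasma.

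Few miRNAs differed between the groups by more than the spread between mice. The 5 most abundant over the 7 mice were miR-206-3p, miR-1a-3p and miR-133a-3p of muscle, miR-122-5p of liver, and miR-99a-5p (log2 fold change 0.075, 95% interval -0.40 to 0.55), and none of them passed the test. In edgeR's quasi-likelihood test, 1 of 368 miRNAs was higher with Givinostat at an adjusted p under 0.05 (0.272%) and 0 were lower (0%). At an unadjusted p under 0.05, 15 were higher (4.08%) and 10 lower (2.72%). DESeq2, over all 1203 miRNAs with a count, called 2 higher and 0 lower, with 18 and 12 at an unadjusted p under 0.05. CPM values did not overlap between the groups for 16 miRNAs that were higher (4.35%) and 12 that were lower (3.26%). Of all 368, 173 lay above 0 (47%) and 195 below (53%), with a median log2 fold change of -0.018 and quartiles of -0.28 and 0.22.

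**Figure D1:**
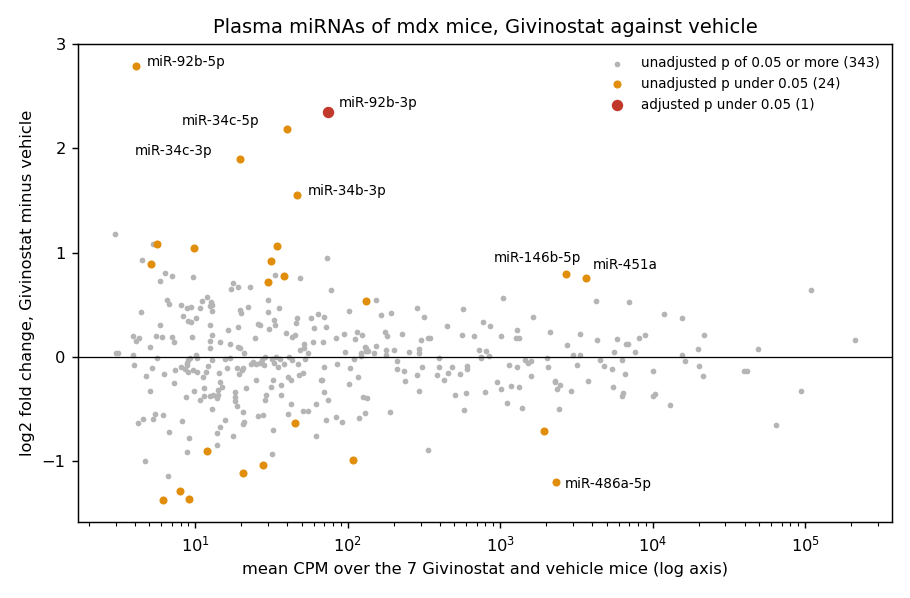
Log2 fold change of each of the 368 tested miRNAs (Givinostat minus vehicle) against its mean CPM over the 7 mice, on a log axis; colours give the edgeR p-value. miR-92b-3p, at 2.35, is the one miRNA with an adjusted p under 0.05, and the arms of miR-34b, miR-34c and miR-92b stand above the cloud at 4 to 74 CPM.

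How much could have gone unseen depended on abundance. The 95% interval of the log2 fold change lay within ±1 for 169 miRNAs (45.9%) and within ±2 for 345 (93.8%). Among the 73 miRNAs over 1000 CPM, the interval lay within ±1 for 53 (72.6%), and the median standard error was 0.27. Among the 65 miRNAs under 10 CPM it did so for 1 (1.54%), and the median standard error was 0.48. A 2-fold change in a scarce miRNA could thus go undetected at this depth and group size. Fitted changes of over 2-fold were seen for 17 miRNAs, of which 1 was over 1000 CPM (miR-486a-5p). Its reads may not be told apart from those of miR-486b-5p.

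miR-92b-3p rose with Givinostat. It is one of the miRNAs that share the seed of the miR-25/92 family, but it comes from a hairpin of its own and not from the clusters of miR-17 relatives. Its level was 57.9, 238 and 115 CPM in Givinostat mice 31, 34 and 35, and 29.3, 27.95, 27.7 and 22.4 CPM in vehicle mice 40, 41, 42 and 43. Every treated mouse lay above every vehicle mouse, and the treated mice were spread over a far wider range. The means were 137 ± 92.1 CPM (SD, n = 3) and 26.8 ± 3.04 CPM (SD, n = 4), a log2 fold change of 2.35 (SE 0.46, 95% interval 1.37 to 3.32, adjusted p = 0.0374 from edgeR). Naive mdx mice, which were not gavaged, were at 58.2, 21.2 and 21.7 CPM (mean 33.7) and naive wt mice at 47.5, 106.05 and 46.6 CPM (mean 66.7). Treated mouse 31 thus lay within the range of the untreated naive mice, and mice 34 and 35 above it. The other arm of the hairpin, miR-92b-5p, was scarce: it had 2, 17 and 12 counts with Givinostat and 4, 1, 1 and 0 with vehicle. Mouse 31 therefore lay inside the vehicle range for this arm, whose log2 fold change was 2.79 (SE 0.88, adjusted p = 0.274 from edgeR). This arm passed the filter on low counts only through mice 34 and 35 and a naive mdx mouse with 9 counts. No vehicle mouse reached the level of the filter.

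The relatives of miR-92b-3p by seed showed no such difference. miR-25-3p, whose hairpin lies within Mcm7, was at 6275 to 7528 CPM with Givinostat and 6197 to 6735 CPM with vehicle (log2 fold change 0.13, 95% interval -0.28 to 0.53). miR-92a-3p was at 3894 to 5184 and 3712 to 5912 CPM (-0.089, interval -0.74 to 0.56). The scarcer miR-32-5p and miR-363-3p had log2 fold changes of 0.77 (SE 0.46) and -0.16 (SE 0.52), with overlapping groups. The other arm of miR-25, miR-25-5p, was at -0.39 (SE 0.52). For miR-25-3p and miR-92a-3p the intervals exclude a change as large as the lower bound of miR-92b-3p, 1.37. The call of miR-92b-3p did not hold when most single mice were left out. Without mouse 34, the highest, the log2 fold change fell to 1.69 (adjusted p = 0.589 from edgeR). The call was also lost without mouse 35 (2.38, 0.0688), 40 (2.33, 0.157), 41 (2.31, 0.117), 42 (2.36, 0.136) or 43 (2.25, 0.166). In those fits the estimate itself stayed close to the 2.35 of all mice. The call was kept without mouse 31 (2.68, 0.00237).

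The arms of miR-34b and miR-34c came next. The miR-34 and miR-449 families are classical brakes on the cell cycle, the first induced by p53, and both are abundant in ciliated epithelia. miR-34c-5p was at 30.4, 140 and 44.7 CPM in mice 31, 34 and 35, and at 12.6, 15.4, 19.2 and 15.4 CPM in mice 40 to 43. The groups did not overlap, and mouse 34 was again the highest. The log2 fold change was 2.19 (SE 0.48), just outside the threshold (adjusted p = 0.0521 from edgeR). DESeq2 over all libraries put it inside (2.18, adjusted p = 0.0167 from DESeq2). miR-34b-3p, at 37.0, 121 and 66.2 CPM against 33.5, 14.7, 20.8 and 32.02 CPM, differed by 1.56 (SE 0.36, adjusted p = 0.0692 from edgeR), with mouse 31 only little above the highest vehicle mouse. miR-34c-3p, at 10.7, 70.5 and 19.9 CPM against 8.38, 10.3, 9.23 and 7.69 CPM, differed by 1.90 (SE 0.51, adjusted p = 0.171 from edgeR). These 3 come from neighbouring hairpins and are not independent. Naive mdx mice were at 9.40, 34.6 and 20.1 CPM of miR-34c-5p (mean 21.4) and naive wt mice averaged 10.8 CPM, so that treated mouse 31 lay below the highest naive mdx mouse.

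Of the other members of the family, miR-449a-5p was below the filter and had 2, 44 and 10 counts in mice 31, 34 and 35 and 0 in each vehicle mouse. By library totals this came to 1.39, 32.2 and 7.24 CPM. The mean was 13.6 ± 16.4 CPM (SD, n = 3), against 0 with vehicle (two-sided exact permutation p = 0.0571, the smallest possible). Mouse 31, at 1.39 CPM, lay below the level that a count of 0 allows in a vehicle library. miR-449c-5p, also from an intron of Cdc20b, had 4 counts in mouse 34 and 0 in the other 6. miR-34a-5p, from another chromosome but with the seed of miR-449a-5p, had 7, 6 and 4 counts against 5, 5, 4 and 0. miR-34b-5p had 1 count in mouse 34. The arms of miR-92b, miR-34b and miR-34c and miR-449a-5p thus shared one order of the treated mice, 34 above 35 above 31. Without mouse 34 the fitted differences were 1.25 for miR-34c-5p and 1.02 for miR-34b-3p; miR-449a-5p was then left with 2 and 10 counts. Since both families are also made in germ cells and epithelia, other miRNAs of those tissues are given here. Of the 36 miRNAs of the testis list 17 had a count in any library and 0 passed the filter, and they took 0.00109% to 0.00188% of the counts with Givinostat and 0.000788% to 0.00382% with vehicle. The 9 tested miRNAs of epithelium had a median log2 fold change of 0.21, and 0 passed at an unadjusted p under 0.05. The part of either tissue in the differences of miR-34b, miR-34c and miR-449a was not tested.

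**Figure D2:**
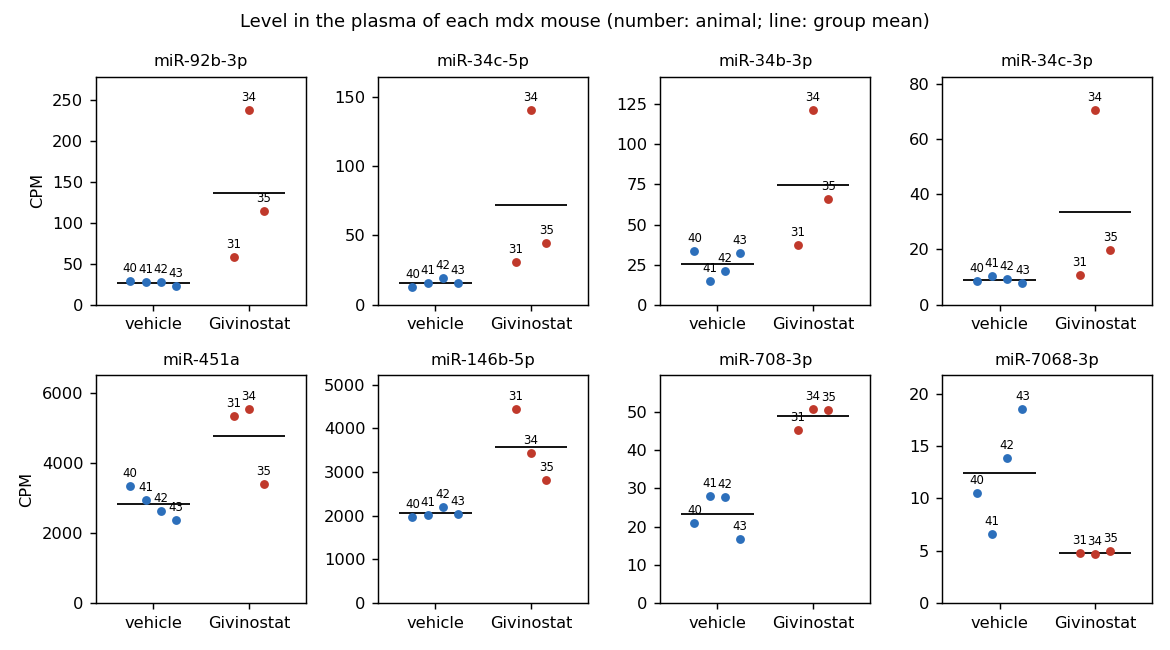
CPM (linear axis from 0) of 8 miRNAs in each mouse, with the animal number beside each point and a line at the group mean. Mouse 34 is the highest treated mouse for miR-92b-3p and the arms of miR-34b and miR-34c, while miR-708-3p lies at 45 to 51 CPM in all 3 treated mice.

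The 10 remaining miRNAs that were higher at an unadjusted p under 0.05 did not pass adjustment, and several of them were tight among the treated mice. Together with those below they were singled out by p-value, so their p-values are given as a description. miR-451a, which red blood cells make in quantity, was at 5326, 5552 and 3393 CPM with Givinostat and 3346, 2944, 2615 and 2365 CPM with vehicle. Mouse 35 was only just above the highest vehicle mouse. The log2 fold change was 0.76 (SE 0.22, adjusted p = 0.255 from edgeR). Naive mdx mice averaged 2496 CPM of miR-451a and naive wt mice 5610 CPM. miR-146b-5p, a brake on NF-kB signalling in inflamed tissue, was at 4451, 3431 and 2819 CPM with Givinostat and between 1962 and 2197 CPM in the 4 vehicle mice, without overlap (0.80, SE 0.27, adjusted p = 0.310 from edgeR). Its hairpin lies in an intron of Mfsd13a. For miR-146b-5p, naive mdx mice averaged 1795 CPM and naive wt mice 3521 CPM. The sister miRNA miR-146a-5p, with the same role, was at 4533 to 4788 CPM against 3566 to 4762 CPM (0.17, SE 0.20).

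miR-708-3p was at 45.4, 50.9 and 50.5 CPM with Givinostat and 16.6 to 27.95 CPM with vehicle (1.07, SE 0.35). miR-15b-5p, from an intron of Smc4, was at 28.1 to 54.3 CPM against 12.2 to 29.3 CPM (0.92, SE 0.34), and miR-195a-5p of the same seed was at 35.2 to 41.4 CPM against 15.4 to 34.6 CPM (0.72, SE 0.33). Both belong to a family that restrains the cell cycle. The arms of miR-214, which fibroblasts and developing muscle transcribe from Dnm3os, were both higher at an unadjusted p under 0.05: miR-214-3p was at 148 to 182 CPM against 105.9 to 119 CPM (0.53, SE 0.25), and miR-214-5p at 33.1 to 60.9 CPM against 19.2 to 43.3 CPM (0.78, SE 0.36). The remaining 3, miR-17-3p (0.89), miR-653-5p (1.05) and miR-598-3p (1.09), were all under 20 CPM in the 7 mice compared.

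Among the 10 miRNAs that were lower at an unadjusted p under 0.05, 0 passed adjustment in edgeR or in DESeq2. miR-486a-5p, made in muscle and red blood cells, was at 1010, 1090 and 1907 CPM with Givinostat and 1970, 6822, 1430 and 2067 CPM with vehicle. Vehicle mouse 41 carried most of this difference (log2 fold change -1.20, SE 0.45), and mouse 35 overlapped the vehicle group. The copy miR-486b-5p was at 4048 to 6970 CPM against 2575 to 7812 CPM (-0.12, SE 0.39), with mouse 41 the lowest. Mouse 41 had 9275 counts of miR-486a-5p and 3501 of miR-486b-5p, while in every other mouse compared miR-486b-5p had the more counts. Reads of the copies may not be told apart by the counting, so both values are uncertain. The part of this in the values of mouse 41 was not tested. miR-149-5p was at 1222 to 1703 CPM against 1428 to 3518 CPM (-0.71, SE 0.32). miR-196a-5p, from the Hox clusters, was at 55.6 to 88.9 CPM against 71.2 to 200.1 CPM (-0.98, SE 0.44). miR-345-3p was at 31.6 to 36.4 CPM against 37.0 to 64.0 CPM, the groups not overlapping by a narrow margin (-0.63, SE 0.27).

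The other 6 lower miRNAs were scarce. miR-3057-5p was at 15.5 to 19.04 CPM with Givinostat and 23.1 to 49.3 CPM with vehicle (-1.03, SE 0.36), and miR-7068-3p at 4.70 to 4.97 CPM against 6.62 to 18.6 CPM (-1.36, SE 0.41). miR-341-3p, of the imprinted Dlk1-Dio3 region, was at 3.92 to 4.77 CPM against 6.28 to 15.4 CPM (-1.28, SE 0.42). miR-331-5p was at 2.39 to 3.92 CPM against 7.35 to 9.77 CPM (-1.37, SE 0.54). Both miR-193b-5p (-1.11) and miR-671-5p (-0.90) had upper bounds of the 95% interval at about 0, of -0.011 and -0.0059. In contrast to miR-92b-3p, the treated mice were close together for miR-7068-3p, miR-341-3p and miR-3057-5p, and the spread lay in the vehicle group.

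**Figure D3:**
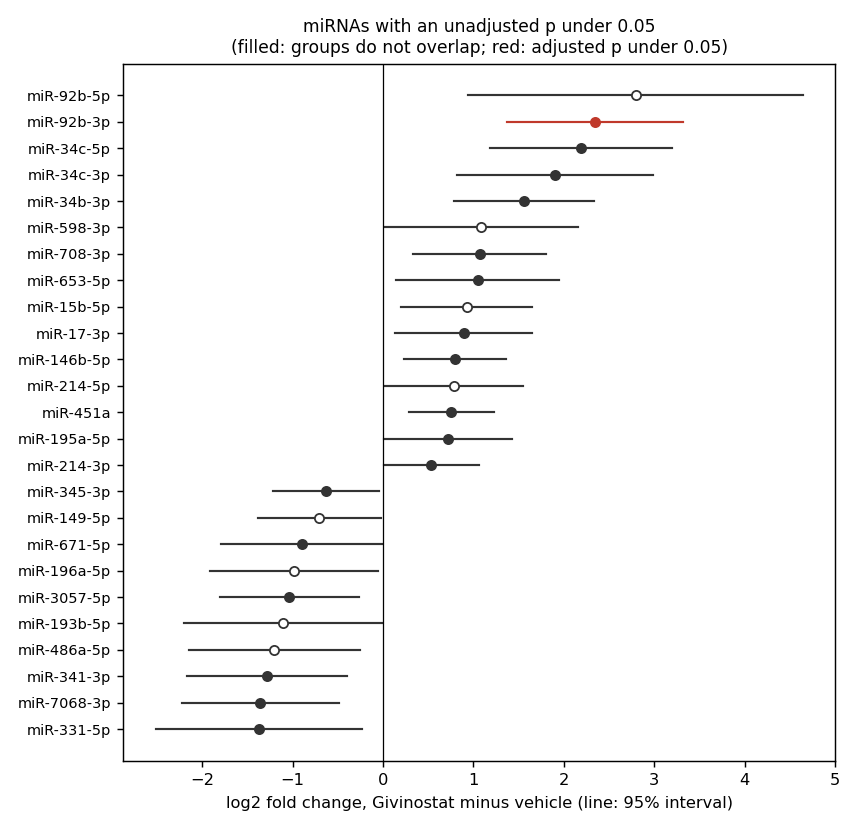
Log2 fold change (Givinostat minus vehicle) and 95% interval of the 25 miRNAs with an unadjusted p under 0.05, ordered by size. Filled points mark groups that do not overlap (17 of the 25), and the red point is miR-92b-3p, with an adjusted p of 0.0374 from edgeR.

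The muscle miRNAs stayed within the spread between mice. These miRNAs are made in skeletal and cardiac muscle, leak from damaged fibres and dominate mdx plasma. The list took 38.0%, 45.5% and 46.8% of the counts in Givinostat mice 31, 34 and 35, and 42.6%, 38.6%, 40.3% and 35.5% in vehicle mice 40 to 43; the ranges overlap. Of its 8 tested members 0 passed the test in either direction, 5 lay above 0 and 3 below, with a median log2 fold change of 0.062, against -0.018 over all 368. miR-206-3p, which marks regenerating muscle, was at 160068 to 272379 CPM against 168422 to 224141 CPM (0.17, 95% interval -0.46 to 0.79). miR-1a-3p was at 102613 to 164239 CPM against 45960 to 146569 CPM (0.64, interval -0.28 to 1.57). miR-133a-3p was at 61601 to 118175 CPM against 64175 to 128409 CPM (-0.33, interval -1.04 to 0.38). The other arm, miR-133a-5p, was at 0.062 (interval -0.59 to 0.72), and miR-133b-3p, whose hairpin neighbours that of miR-206, at -0.50 (interval -1.23 to 0.23). The intervals exclude a 4-fold change for each of these 5, but not a change of 1.5-fold in one direction or the other.

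Other miRNAs tied to dystrophic muscle lay on both sides of 0. The 5 tested members of the miR-378 family, whose miR-378a is abundant in muscle, were all below 0, with a median of -0.45. miR-378a-3p, the most abundant, was at 10153, 12073 and 9991 CPM against 12967, 17212, 14398 and 14627 CPM, without overlap (-0.46, SE 0.24, unadjusted p = 0.0706 and adjusted p = 0.710 from edgeR). miR-378a-5p (-0.23), miR-378b (-0.33), miR-378c (-0.45) and miR-378d (-0.58) overlapped between the groups, and 0 of the 5 passed at an unadjusted p under 0.05. miR-378a-3p and miR-378a-5p are arms of one hairpin, and the others come from hairpins of their own. The 2 arms of miR-22 were at -0.13 (miR-22-3p, interval -0.63 to 0.37) and -0.054 (miR-22-5p, interval -0.61 to 0.51), the second above 0 with upper-quartile factors. In the list of miRNAs described for dystrophic muscle, 8 of 9 tested members lay above 0 with a median of 0.27, and 1, miR-34c-5p, passed at an unadjusted p under 0.05.

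The liver miRNA miR-122-5p turned on one animal. It was at 25420, 49644 and 70834 CPM with Givinostat and 29725, 58631, 188547 and 27824 CPM with vehicle, mouse 42 lying over 3 times as high as the next vehicle mouse. The log2 fold change was -0.65 (95% interval -2.11 to 0.82), and 0.33 without mouse 42. The other arm, miR-122-3p, was at -0.84 and turned to 0.34 in the same way. The 4 tested members of the liver list had a median of -0.36, and 0.33 without mouse 42.

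The miRNAs of blood cells showed different pictures within the same list. Of the 7 tested miRNAs of the red blood cell list 1 was higher (miR-451a) and 1 lower (miR-486a-5p) at an unadjusted p under 0.05, with a median of -0.12 that turned above 0 with upper-quartile factors. Without 1 library that median ran from -0.47 (without mouse 35) and -0.42 (without mouse 41) to 0.070 (without mouse 43). miR-144-3p and miR-144-5p, transcribed with miR-451a from one cluster on chromosome 11, had log2 fold changes of 0.76 (SE 0.36) and 0.79 (SE 0.46), close to that of miR-451a, and overlapped between the groups. The list took 1.11% to 1.31% of the counts with Givinostat and 0.787% to 1.52% with vehicle. The level of miR-451a relative to miR-23a-3p, a common gauge of red cell lysis in plasma, had log2 values of -0.69, -0.87 and -1.54 with Givinostat and -1.77, -1.67, -2.04 and -2.14 with vehicle. The groups did not overlap (difference 0.87, two-sided exact permutation p = 0.0571, the smallest possible). When miR-486a-5p took the numerator the difference was -0.83 (p = 0.171 by the same exact test). In that ratio vehicle mouse 41 was at -0.46, and mice 40, 42 and 43 were at -2.54, -2.91 and -2.33. Muscle makes miR-486a-5p too, and its reads may not be told apart from those of miR-486b-5p, so this second ratio is uncertain. The part of red cells in the differences above was tested only by adding the first ratio as a covariate, which left miR-92b-3p at 2.31 and miR-34c-5p at 2.497 (both with adjusted p = 0.877 from edgeR), miR-146b-5p at 0.76 and miR-451a itself at 0.20. That fit has little power, because the ratio itself separates the groups, and the median standard error grew from 0.34 to 0.52. In addition, miR-451a is the numerator of the ratio, and the miR-144 arms are transcribed with it. Their values in that fit were partly fixed by its design, so no reading of red cells can be drawn from them.

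White cell and tissue lists held no member that passed adjustment. The 4 tested myeloid miRNAs had a median of 0.21 (miR-142a-5p 0.22) and the 7 tested lymphocyte miRNAs were all below 0, though not all with upper-quartile factors, under which miR-181a-5p lay above it. Their median was -0.16, and they ran from -0.48 for miR-150-5p, which mature lymphocytes express, through -0.094 for miR-181a-5p to -0.044. In the inflammation list all 3 tested members lay above 0 (median 0.22), miR-146b-5p at the top. In the fibrosis list 8 of 10 lay above 0 (median 0.28). Among them 2 passed at an unadjusted p under 0.05, against 15 higher of all 368 (4.08%), and these 2 are the arms of one hairpin, miR-214. The most abundant, miR-21a-5p, was at 0.37 (SE 0.28) with overlapping groups. The median of the fibrosis list was 0.078 without vehicle mouse 43. The 6 vascular miRNAs had a median of 0.12 (miR-143-3p 0.18) and the 9 of epithelium 0.21 (miR-205-5p 0.18). Of the neuron and glia list 6 of 7 lay below 0 (median -0.13, and 0.37 without vehicle mouse 41), miR-128-3p among them at -0.35 (SE 0.32), and miR-375-3p, the 1 tested miRNA of the pancreas list, was at -0.074. With the red cell ratio as a covariate, several medians moved: that of muscle to 0.53, of the miR-17 clusters to -0.45 and of the myeloid list to -0.27.

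Families defined by sequence or position lay near 0 as well. The 17 tested let-7 miRNAs, which are abundant in mature tissue, had a median of 0.13 and a range of -0.23 to 0.53 (let-7c-5p 0.076). The 10 of the miR-30 family had a median of 0.0035 (miR-30d-5p -0.13), and the 12 of the miR-17 clusters 0.061, with miR-17-3p at the top and miR-93-5p at -0.013. The 30 tested members of the imprinted Dlk1-Dio3 cluster had a median of 0.16, with 20 above 0. miR-434-5p, the most abundant, was at 0.55 (SE 0.32), and 1 member, miR-341-3p, passed at an unadjusted p under 0.05. The list of miR-34 and miR-449 stood apart with a median of 1.90 over 3 tested members (1.02 without mouse 34), followed by the fibrosis list at 0.28.

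**Figure D4:**
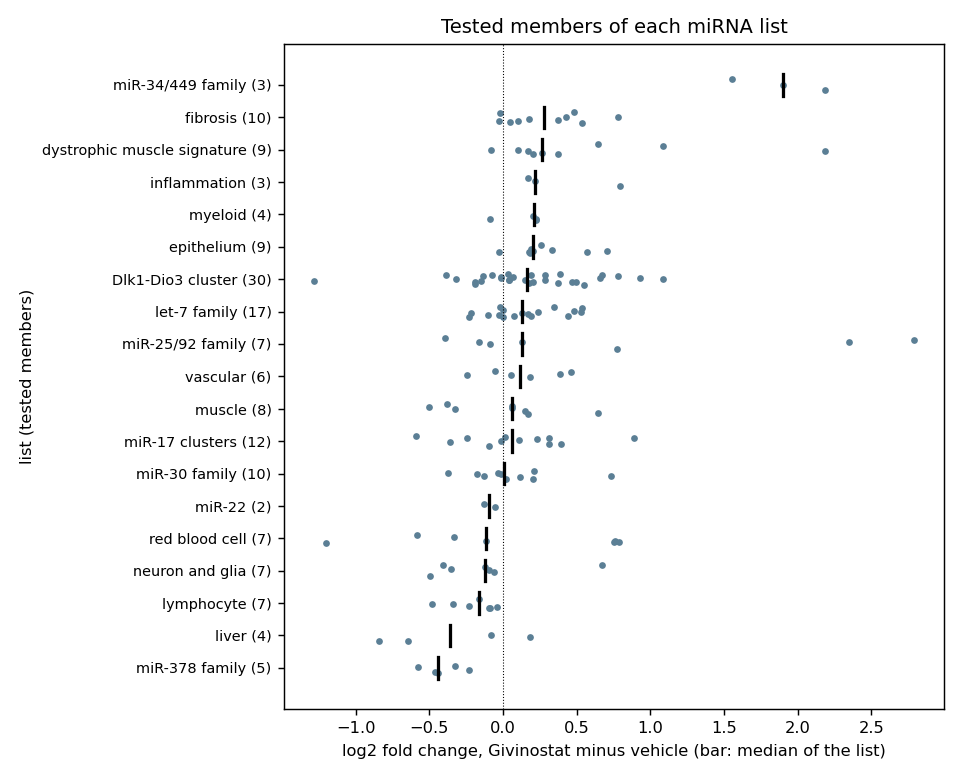
Log2 fold change (Givinostat minus vehicle) of each tested member of 19 lists, ordered by median (black bar), with the number of tested members in brackets. The list of miR-34 and miR-449 has all its members over 1; the medians of the others lie between -0.45 and 0.28, and miRNAs in several lists are plotted in each.

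The comparison of naive mdx with naive wt mice gives a set of disease-related miRNAs from 6 other animals. At an adjusted p under 0.05 from edgeR, 99 of 368 miRNAs were higher in naive mdx (26.9%) and 61 lower (16.6%). Of the 99, 77 were lower with Givinostat than with vehicle (77.8%), with a median log2 fold change of -0.23. Of the 61, 45 were higher with Givinostat (73.8%), with a median of 0.24. Over all 368, 53% were lower, with a median of -0.018. Among the 49 miRNAs over 4-fold higher in naive mdx, 41 were lower with Givinostat, with a median of -0.46. None of the 160 passed adjustment for treatment. At an unadjusted p under 0.05, 7 of the 99 were lower and 0 higher, and 5 of the 61 were higher and 0 lower. Over all 368, 10 were lower (2.72%) and 15 higher (4.08%) at that level. Of these, 3 of the lower and 10 of the higher were called in neither direction in naive mdx. Across the 368 miRNAs the Pearson correlation of the differences was -0.376 and the Spearman correlation -0.492, over points from the same libraries that are not independent.

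This tilt was small beside the spread between vehicle mice. Levels were measured against the midpoint of the Givinostat and vehicle group means. The 99 miRNAs then had medians of -0.19, -0.12 and -0.018 in Givinostat mice 31, 34 and 35. In vehicle mice 40, 41, 42 and 43 their medians were 0.14, -0.14, 0.094 and 0.42. The 61 had medians of 0.27, 0.29 and -0.021, and of -0.21, 0.25, -0.29 and -0.56. Vehicle mouse 41 therefore resembled the treated mice, mouse 43 lay furthest the other way, and the groups overlapped. Without mouse 43, the medians were -0.15 and 0.15; without mouse 41 they were -0.42 and 0.35. With the red cell ratio as a covariate they were 0.098 and -0.031. In that fit 42 of the 99 were lower and 29 of the 61 higher, so the tilt was not seen. The log2 ratio was -2.13, -2.68 and -1.80 in naive mdx mice and 0.022, -0.11 and 0.11 in naive wt mice. It separates those groups as well, so red cells and the disease difference cannot be told apart in that fit. Among the most abundant sources, the muscle list lay on both sides of 0 (5 of 8 above, 3 below). The liver miRNA miR-122-5p, with a log2 fold change of -3.91 in naive mdx against naive wt, was at -0.65 with treatment and at 0.33 without vehicle mouse 42.

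**Figure D5:**
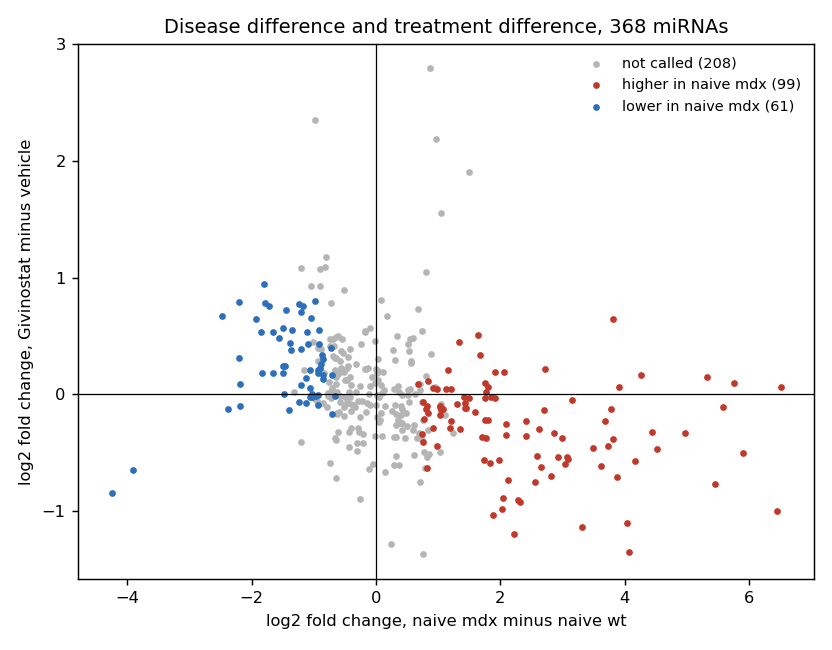
Log2 fold change with treatment (Givinostat minus vehicle) against that with disease (naive mdx minus naive wt) for the 368 miRNAs, coloured by the call in naive mdx. Of the 99 red points 77 lie below 0 and of the 61 blue points 45 lie above it, while miR-92b-3p and the arms of miR-34b and miR-34c are among the grey points, called in neither direction.

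The arms of one hairpin shared a side of 0 more often than not. Of 95 hairpins with both arms tested, 62 had both on the same side of 0 (Pearson r = 0.694 across hairpins, 0.477 over 93 without miR-34c and miR-92b; a description, since the arms share a transcript). Both arms differed by more than 2-fold upward for 2 hairpins, miR-34c and miR-92b. Since no vehicle mouse brought miR-92b-5p past the filter on low counts, it adds no separate support to miR-92b-3p. Clusters of hairpins within 10 kb of each other were counted where at least 3 of their tested miRNAs had a RefSeq sequence. Of these 26 clusters, 11 had all their tested miRNAs on one side of 0 and 15 had them on both. The medians ran from -0.58 for miR-193b and miR-365 on chromosome 16, with 4 of 4 below 0, to 0.76 for miR-144 and miR-451a on chromosome 11. The neighbours Mir34b and Mir34c were not among the 26, because RefSeq held no mature sequence named miR-34c-5p. Their 3 tested arms had a higher median, 1.90.

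Shared seeds did not track the difference in most families. Seeds were taken from the 319 tested miRNAs with a RefSeq sequence, so some families are incomplete. Of 12 seeds with at least 3 such miRNAs, 11 had medians within 0.5 of 0. The exception was the miR-15/16 seed, AGCAGCA, at bases 2 to 8, with all 5 miRNAs above 0 and a median of 0.72: miR-497a-5p was at 1.18, miR-15b-5p at 0.92, miR-195a-5p at 0.72, miR-16-5p at 0.30 and miR-15a-5p at 0.041. The abundant member, miR-16-5p, was at 820 to 1041 CPM against 572 to 900 CPM, with overlap. These 5 were named after their values were seen, and miR-497a-5p was under 6 CPM in all 7 mice compared. For the seed of miR-92b-3p, the median over 5 miRNAs was 0.13, with a range of -0.16 to 2.35.

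Among miRNAs too scarce to test, few were confined to one group in every mouse. A count in all 3 Givinostat mice and in no vehicle mouse was seen for 4 miRNAs: miR-449a-5p, miR-1247-3p (2, 3 and 1 counts), miR-667-5p (2, 1 and 1) and miR-7021-5p (2, 2 and 1). The reverse was seen for 1, miR-6960-5p, with 2, 1, 1 and 2 counts. In all, 107 miRNAs had a count with Givinostat and none with vehicle, and 182 the reverse, with 1 more vehicle library to count in. Apart from miR-449a-5p, the counts of the other 3 were at or below the 3 counts that a count of 0 allows.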

How the data were processed

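Small RNA was sequenced from plasma (NEBNext libraries, NextSeq 500). The authors filtered and trimmed the reads, mapped them to GRCm38 (reads of up to 25 bases without mismatch) and annotated them with miRBase; the methods name Trimmomatic, and the submitters' processing notes Bowtie 1.0.0, cutadapt 1.4.2 and bcl2fastq 1.37.0. The raw counts deposited by the authors (1 per mature miRNA, summed over its isomiRs) were used. A second deposited table of normalized log2 values was not used here. No molecular identifiers are described, so limits from counts cover counting error only.

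Counts were scaled by TMM, filtered with filterByExpr (minimum count 10, by group) and fitted in edgeR 4.0.16 (R 4.3.3) with 1 mean per group over all 13 libraries, since all share the assay and add to the estimate of spread. Givinostat was compared with vehicle by the quasi-likelihood test (glmQLFit with legacy = FALSE, glmQLFTest), with Benjamini-Hochberg adjustment over 368 miRNAs and calls under 0.05. The study tested with DESeq2, and DESeq2 1.42.0 was an alternative. For single values a two-sided exact permutation test was used. Each mouse was 1 sample. Named miRNAs were those called, those the study names, the 10 smallest p-values in each direction, the 5 most abundant, of up to 4 members allowed from each list the most abundant, and the families of miR-34, miR-449, miR-25 and miR-92; the other miRNAs of the 25 with an unadjusted p under 0.05, the miR-144 arms, miR-486b-5p, the miR-15/16 seed and the rest of the miR-378 family were added after their values were seen. The members and lists were chosen with earlier results of these data known. Hosts and positions are from GENCODE and RefSeq on GRCm38. Alternatives were scaling by RLE, upper quartile or totals, the low-count filter dropped or raised to 10 CPM on average, DESeq2, fits of 2 groups, robust estimation, a red cell covariate (log2 miR-451a over miR-23a-3p), naive mdx joined to vehicle, and each library left out; upper-quartile and covariate values for the lists and the naive mdx sets were added after seeing the data.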

Additional observations from a re-analysis of the deposited data

Results flagged for a closer look

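In 7 of 87 groups of 4 vehicle mice examined, 1 animal stood apart from the other 3 by more than Dixon's 95% limit. Chance alone gives about 1 in 20 groups for independent, normally distributed values. These 87 are not independent: lists share miRNAs, and some miRNAs were named after their values were seen. The 7 therefore cannot be set against that rate. Vehicle mouse 41 was the one apart in 4 of them: it was low for miR-133b-3p (369.2 CPM), high for miR-486a-5p (6822 CPM), and high for the shares of counts of the vascular list (2.29%) and of the fibrosis list (2.94%). The value of miR-486a-5p is uncertain, because its reads may not be told apart from those of miR-486b-5p, for which mouse 41 was the lowest (2575 CPM). Vehicle mouse 42 was high for miR-122-3p (46.2 CPM), mouse 40 for miR-671-5p (20.9 CPM) and mouse 43 for miR-25-5p (25.6 CPM). Groups of 3, and so the Givinostat mice, were not examined in this way. No cause was tested.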

How the results depend on the processing

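The count of miRNAs called higher was 1 with RLE factors and in edgeR with the 2 groups only, 2 with library totals, with robust estimation and in DESeq2 over all libraries or 2 groups, 3 with upper-quartile factors, 4 with naive mdx joined to vehicle, 6 with no filter, and 0 under the filter at 10 CPM and with the red cell ratio as a covariate (13 and 8 higher and 5 and 5 lower at an unadjusted p under 0.05 in edgeR). Without 1 library it ran from 0 to 6 (6 without mouse 31; 0 without any other, with 9 to 26 higher and 8 to 19 lower at an unadjusted p under 0.05). All called miRNAs were among the arms of miR-92b and miR-34c, miR-34b-3p, miR-449a-5p and miR-451a. Lower calls numbered 0 in every setting of edgeR and DESeq2, with 5 to 21 lower at an unadjusted p under 0.05. miR-92b-3p ranged from 1.69 to 2.68 over 18 alternatives and passed in 10, and miR-34c-5p from 1.25 to 2.51, passing in 8. Upper-quartile factors moved the median of all miRNAs to 0.09.

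With the covariate the sign turned for miR-133b-3p (0.51), miR-133a-3p (0.61), miR-22-5p (0.53), miR-22-3p (0.43), miR-25-3p (-0.051), miR-205-5p (-0.13), miR-30d-5p (0.25), miR-142a-5p (-0.099), miR-128-3p (0.32), miR-486b-5p (0.61), miR-144-3p (-0.51), miR-144-5p (-0.77), miR-15a-5p (-0.77), miR-16-5p (-0.049), miR-378c (0.0063) and miR-378a-5p (0.42). With upper-quartile factors it turned for miR-22-5p (0.043), miR-92a-3p (0.048), miR-181a-5p (0.013), miR-93-5p (0.089), miR-375-3p (0.033) and miR-486b-5p (0.021); with no filter and with the 10 CPM filter for miR-93-5p (0.017 and 0.0069); with the joined control for miR-93-5p (0.026), miR-133a-5p (-0.049) and miR-15a-5p (-0.28). Leaving out 1 library gave ranges across 0 for miR-133a-5p (-0.13 to 0.14), miR-22-5p (-0.18 to 0.073), miR-122-3p (-1.38 to 0.34), miR-122-5p (-1.13 to 0.33), miR-99a-5p (-0.086 to 0.14), miR-92a-3p (-0.27 to 0.0085), miR-363-3p (-0.49 to 0.18), let-7c-5p (-0.024 to 0.087), miR-93-5p (-0.15 to 0.082), miR-375-3p (-0.22 to 0.082), miR-486b-5p (-0.47 to 0.070) and miR-15a-5p (-0.24 to 0.26), and for the difference in total counts (-57436 to 22306). None of these differences was called. The median of the miRNAs higher in naive mdx ran from -0.42 to -0.15 without 1 library and was 0.098 with the covariate, an alternative chosen for this median after seeing the data. The red cell ratio turned to -0.83 with miR-486a-5p, whose reads may not be told apart from those of miR-486b-5p. The cause was not tested. No paired analysis was possible because the groups share no animal numbers.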
